A study of Mus musculus with 24 samples.

Results

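The genes described here are 10 surface receptors of the paired and lectin-like kind: Klra2, Clec2i, Tarm1, Pira2, Pirb, Sirpa, Sirpb1c, Siglec1, Siglece and Cd33. They were chosen by symbol, as the 10 of 47643 genes in the count table whose Ensembl identifiers carry these names. The choice was made with results of these data known, so their levels and fold changes are given as descriptions of chosen genes. Counts of changed receptors are set beside the share of all genes that changed, and nothing about the family is read from them.

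Mouse macrophages of 2 sources were profiled by bulk RNA sequencing at 4 time points. One source was induced pluripotent stem cells (iPSC-derived macrophages), and the other was bone marrow (BM-derived macrophages). Each source had 3 libraries of macrophages in co-culture at each of day 3, day 6 and day 12, and 3 libraries at day 0 with no co-culture, which gave 8 groups and 24 libraries. The labels describe the replicates as independent and the day 0 controls as being of the same batch, and they do not name the strain, the age of any animal, the iPSC line or the cells of the co-culture. A difference from day 0 combines co-culture and time, and the effects of co-culture and time cannot be told apart. The p-values measure the spread between these libraries, through an estimate for each gene that all 8 groups share, and not the spread of the compared groups alone. A gene's level in a bulk library depends both on how many cells express it and on how much RNA each of them holds, and these cannot be told apart.

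Paired receptors come as relatives with similar outer domains and opposite signals. The inhibitory member carries cytoplasmic tyrosine motifs that recruit the phosphatases SHP-1 and SHP-2, and the activating member has a short tail and signals through the adaptor DAP12 or the Fc receptor gamma chain. On macrophages and microglia, inhibitory members read self signals such as MHC class I, CD47 and sialic acid on neighbouring cells, and raise the threshold for phagocytosis and activation. Siglecs are the sialic acid-binding members of the immunoglobulin superfamily, while Klra2 and Clec2i encode C-type lectin-like proteins from the natural killer gene complex.

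The libraries held 5839316 to 11805478 counts assigned to genes, with 15357 to 18321 genes detected. All 9 macrophage marker genes, among them Csf1r, Adgre1 and Spi1, had counts in each of the 8 groups. Their summed level at day 0 was 6621 to 9702 CPM (counts scaled to library size, here with edgeR's TMM factors) in iPSC-derived and 40540.2 to 43354 CPM in BM-derived libraries, and at day 12 it was 13025 to 32619 CPM in iPSC-derived and 25258 to 29569 CPM in BM-derived libraries. The sources therefore also differed in this list at day 0, and its part in the source comparisons was not tested. The summed level of 6 fibroblast markers in iPSC-derived libraries was 2.41 to 13.5 CPM at day 0, 9.75 to 58.1 CPM at day 3, 230.2 to 532 CPM at day 6 and 188 to 323 CPM at day 12. In BM-derived libraries it was 49.2 to 78.3 CPM at day 12, against 0.261 to 10.7 CPM at day 0. In BM-derived libraries at day 3, where several receptors peaked, 5 endothelial markers summed to 42.7 to 50.7 CPM, against 2.67 to 5.99 CPM at day 0, with Tek and Cldn5 at 0 at day 3. The 6 neuron markers summed to 33.0 to 47.3 CPM there, against 0 to 1.16 CPM at day 0. Microglial markers summed to 6091 to 9684 CPM at day 12 in iPSC-derived libraries, against 1457 to 1803 CPM at day 0, and to 6628 to 7075 CPM in BM-derived libraries at day 12, against 897 to 1019 CPM at day 0. The part of such cells in the receptor levels was not tested.

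Promoter sequences are shown for 2 sets of close relatives and for the receptors with no count in BM-derived macrophages at day 0. They come from the RefSeq table for GRCm38.p6, cover 300 bases around the start of the gene, and are written 5′ to 3′ on the gene's strand. The table held 8 of the 10 receptors. In the first pair, capitals mark the bases at which the activating Pira2 and the inhibitory Pirb differ. Their promoters matched at 264 of 272 aligned bases (97.1%), and 8 bases differed.
Pirb, chr7:3720333-3720632, minus strand: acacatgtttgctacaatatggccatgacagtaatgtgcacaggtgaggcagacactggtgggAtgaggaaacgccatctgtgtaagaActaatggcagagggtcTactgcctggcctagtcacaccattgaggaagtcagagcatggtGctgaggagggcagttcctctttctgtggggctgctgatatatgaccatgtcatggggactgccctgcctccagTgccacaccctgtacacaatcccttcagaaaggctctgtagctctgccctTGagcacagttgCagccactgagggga
Pira2, chr7:3845002-3845301, minus strand: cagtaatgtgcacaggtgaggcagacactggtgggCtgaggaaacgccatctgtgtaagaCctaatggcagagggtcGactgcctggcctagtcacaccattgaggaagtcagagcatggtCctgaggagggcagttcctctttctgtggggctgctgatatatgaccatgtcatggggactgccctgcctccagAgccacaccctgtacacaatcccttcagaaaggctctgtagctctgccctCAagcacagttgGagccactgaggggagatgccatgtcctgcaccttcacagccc
The next pair belongs to relatives that both peaked at day 3 in BM-derived macrophages, with capitals at the bases where they differ. Sirpb1c and Sirpb1b matched at 254 of 259 aligned bases (98.1%). Sirpb1a, the remaining relative, matched Sirpb1c at 237 of 248 aligned bases (95.6%).
Sirpb1c, chr3:15848438-15848737, minus strand: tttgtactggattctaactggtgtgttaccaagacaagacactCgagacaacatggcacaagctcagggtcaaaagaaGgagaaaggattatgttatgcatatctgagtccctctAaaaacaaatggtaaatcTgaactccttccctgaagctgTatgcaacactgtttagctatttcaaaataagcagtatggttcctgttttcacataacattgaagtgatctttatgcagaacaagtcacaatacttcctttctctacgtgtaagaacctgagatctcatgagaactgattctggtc
Sirpb1b, chr3:15575016-15575315, minus strand: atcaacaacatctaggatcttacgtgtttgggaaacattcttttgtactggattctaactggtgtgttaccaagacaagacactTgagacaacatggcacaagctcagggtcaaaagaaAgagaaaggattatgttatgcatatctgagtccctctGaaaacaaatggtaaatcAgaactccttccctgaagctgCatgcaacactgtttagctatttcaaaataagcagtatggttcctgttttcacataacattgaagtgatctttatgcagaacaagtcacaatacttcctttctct
The last set shows the promoters of the receptors that were without a count in BM-derived macrophages at day 0 and detected there at day 3. Here the capitals mark matches to the motifs given next.
Klra2, chr6:131247313-131247612, minus strand: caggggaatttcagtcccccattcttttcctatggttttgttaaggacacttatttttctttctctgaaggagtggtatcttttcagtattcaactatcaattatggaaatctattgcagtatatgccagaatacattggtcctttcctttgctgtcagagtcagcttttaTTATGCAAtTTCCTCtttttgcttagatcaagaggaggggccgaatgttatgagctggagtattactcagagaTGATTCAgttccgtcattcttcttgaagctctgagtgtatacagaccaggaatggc
Tarm1, chr7:3502575-3502874, minus strand: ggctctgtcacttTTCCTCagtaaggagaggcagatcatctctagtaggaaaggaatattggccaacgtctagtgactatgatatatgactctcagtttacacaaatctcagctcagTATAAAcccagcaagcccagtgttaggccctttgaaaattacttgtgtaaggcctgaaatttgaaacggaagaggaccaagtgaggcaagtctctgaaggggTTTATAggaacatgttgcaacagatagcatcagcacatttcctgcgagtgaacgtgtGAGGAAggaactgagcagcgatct

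Motifs were searched on both strands. GAGGAA, a core bound by ETS factors such as the myeloid regulator PU.1, stood in 6 of the 8 receptor promoters (Klra2, Tarm1, Pira2, Pirb, Siglece and Cd33) and in 28.3% of all 32851 promoters. TGANTCA, the AP-1 site, stood in the Klra2 promoter and in 7.81% of all promoters. TTGCNNAA, a C/EBP site, stood in the promoters of Klra2 and Clec2i and in 10.8% of all promoters. TATAAA, the TATA box, stood in the Tarm1 promoter at 2 places and in 13.6% of all promoters. The core of the interferon-stimulated response element stood in 0 of the 8 and in 3.44% of all promoters. A match describes these letters and does not show binding, and no motif overlapped another within the Klra2 or Tarm1 window.

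Per kilobase of gene length (RPKM), Sirpa was the most abundant of the 10 receptors in every group, with group means of 301 to 516 RPKM. Pirb came next at day 0 and day 3 in iPSC-derived macrophages, with 55.0 and 42.8 RPKM, and Cd33 took that place at day 6 and day 12, with 25.8 and 34.5 RPKM. In BM-derived macrophages Pirb was the second most abundant on each day, at 61.0 to 278 RPKM. At the low end, Klra2 had no count in any iPSC-derived library. Klra2, Clec2i, Tarm1, Pira2 and Sirpb1c were all at or below 0.0292 RPKM in iPSC-derived macrophages at day 12, whereas in BM-derived macrophages at day 12 Clec2i still stood at 22.6 RPKM and Klra2 at 8.83 RPKM. RPKM depends on the counted length and, for genes with near-identical copies, on which reads map to 1 place.

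**Figure D1:**
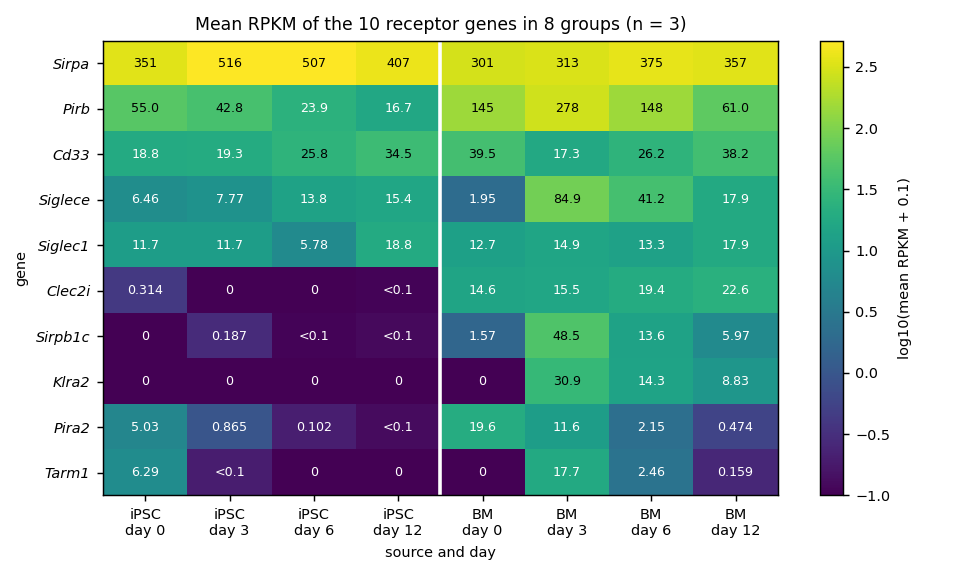
Mean RPKM of the 10 receptors (3 libraries per group) by source and day, iPSC-derived at left and BM-derived at right, coloured by log10 of RPKM with 0.1 added. Sirpa is highest in all 8 groups, and Klra2 has no count in the iPSC-derived groups.

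**Figure D2:**
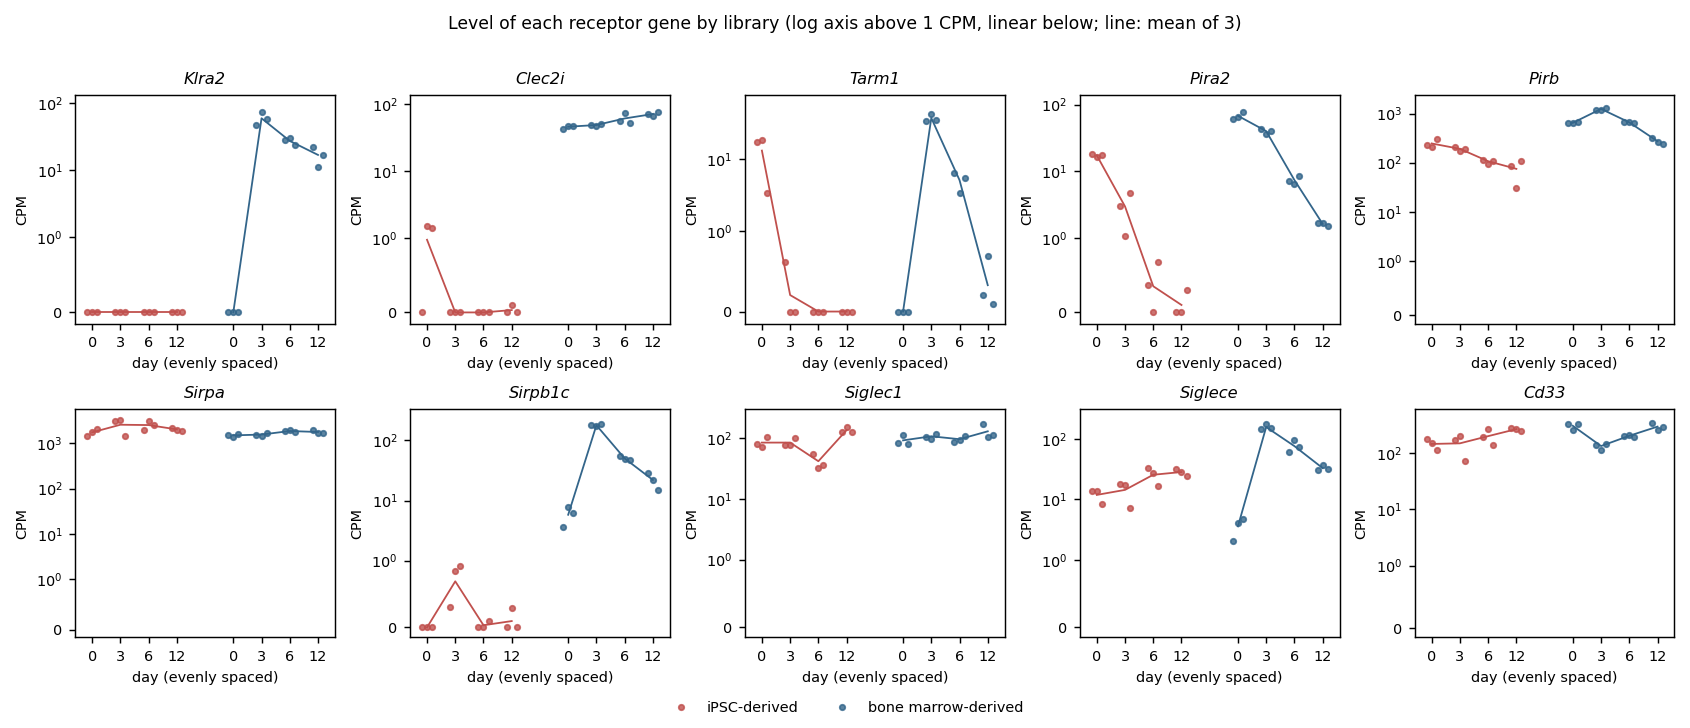
Level of each receptor in CPM against day, with iPSC-derived libraries at left and BM-derived libraries at right in each panel; points are libraries, lines join the means of 3, and the axis is logarithmic above 1 CPM and linear below. Klra2, Tarm1, Sirpb1c and Siglece peak at day 3 in BM-derived cells, where Klra2 reaches 46.7 to 72.1 CPM and Sirpb1c 173 to 186 CPM.

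The inhibitory immunoglobulin-like receptors come first. Pirb (ENSMUSG00000058818.13, chr7:3711409-3720391, minus strand, mm10) encodes PIR-B, an inhibitory receptor for MHC class I that also binds myelin-derived inhibitors of neurite growth. In iPSC-derived macrophages Pirb had 226, 207 and 305 CPM at day 0, 209, 173 and 192 CPM at day 3, 114, 96.0 and 110.0 CPM at day 6, and 85.2, 29.9 and 109 CPM at day 12. The BM-derived libraries had 634, 646 and 660.2 CPM at day 0, 1203, 1205 and 1322 CPM at day 3, 671, 665 and 647 CPM at day 6, and 316, 259.7 and 242 CPM at day 12. Every BM-derived library at day 3 lay above all others, and the iPSC-derived libraries at day 12 lay below all those at day 0.

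Pirb fell by 1.72 ± 0.27 on the log2 scale at day 12 relative to day 0 in iPSC-derived macrophages (standard error; adjusted p = 4.4e-05, edgeR's quasi-likelihood test with Benjamini-Hochberg adjustment over 15000 genes, which holds for the adjusted p-values below). In BM-derived macrophages Pirb rose at day 3 relative to day 0, with a log2 fold change of 0.94 ± 0.26 (adjusted p = 0.012). It then fell, with a log2 fold change of -2.19 ± 0.27 at day 12 relative to day 3 (adjusted p = 1e-05) and -1.25 ± 0.26 at day 12 relative to day 0 (adjusted p = 0.001). The day 3 change itself differed between the sources, by -1.30 ± 0.36 for iPSC-derived minus BM-derived (adjusted p = 0.012). Pirb was lower in iPSC-derived than in BM-derived macrophages on each of the 4 days, with log2 fold changes of -1.40 ± 0.26 at day 0, -2.70 ± 0.27 at day 3, -2.63 ± 0.27 at day 6 and -1.87 ± 0.27 at day 12.

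Sirpa (ENSMUSG00000037902.18, chr2:129592835-129632228, plus strand) encodes the inhibitory receptor for CD47, the signal by which cells restrain their own engulfment. It had 1405, 1726 and 2035 CPM at day 0, 3019, 3142 and 1442 CPM at day 3, 1892, 3133 and 2450.3 CPM at day 6, and 2175, 1979.7 and 1841 CPM at day 12 in iPSC-derived macrophages. Among BM-derived libraries the levels were 1482, 1350.1 and 1605 CPM at day 0, 1542, 1413 and 1662 CPM at day 3, 1809, 1940.0 and 1778 CPM at day 6, and 1942, 1638 and 1681 CPM at day 12. With the 8 group means put in order, each group overlapped the next. The iPSC-derived libraries at day 3 were spread widest, since the third lay below the other two by more than the range of any BM-derived group.

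Only at day 3 did Sirpa pass the test between the sources, with 2534 ± 948 CPM in iPSC-derived and 1539 ± 124 CPM in BM-derived macrophages (SD, n = 3 each) and a log2 fold change of 0.72 ± 0.21 (adjusted p = 0.015). The ranges overlapped. The call was lost without the first or the second iPSC-derived library at day 3 (adjusted p = 0.087 and 0.1), without the second BM-derived library at day 3 (adjusted p = 0.071), without scaling factors (0.078) and in a fit on only these groups (0.086). Within iPSC-derived macrophages the change at day 3 relative to day 0 missed the threshold, at 0.56 ± 0.21 (adjusted p = 0.058), and passed it without the third library at day 3 (0.82, adjusted p = 0.00069), without the third at day 0 (0.69, adjusted p = 0.04), with DESeq2 (0.032) and with no filter on low counts (0.0015). Also without the third library at day 3, the change at day 12 relative to day 3 (-0.60, adjusted p = 0.021) and the source difference in the day 3 change (0.73, adjusted p = 0.02) passed too, and without the first iPSC-derived library at day 6 so did the source difference at day 6 (0.63, adjusted p = 0.044). In BM-derived macrophages a fit on only the compared groups called the day 12 change from day 0, at 0.27 (adjusted p = 0.04).

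Among the activating relatives, Pira2 (ENSMUSG00000089942.9, chr7:3836812-3845051, minus strand) encodes a PIR-A receptor, which binds MHC class I and signals through the Fc receptor gamma chain. It had 18.4, 16.2 and 17.7 CPM at day 0, 3.08, 1.08 and 4.82 CPM at day 3, 0.375, 0 and 0.683 CPM at day 6, and 0, 0 and 0.303 CPM at day 12 in iPSC-derived macrophages. BM-derived macrophages had 61.6, 65.1 and 77.2 CPM at day 0, 43.9, 36.1 and 40.3 CPM at day 3, 7.24, 6.40 and 8.65 CPM at day 6, and 1.70, 1.69 and 1.53 CPM at day 12. In the BM-derived groups no day overlapped another, and in the iPSC-derived groups only day 6 and day 12 overlapped.

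Pira2 fell in iPSC-derived macrophages by day 3, with a log2 fold change of -2.53 ± 0.42 against day 0 (adjusted p = 9e-05). At day 12 its 3 counts over 3 libraries put it 167-fold lower than at day 0, with an exact 95% counting interval of 56.9 to 814-fold (adjusted p = 1.1e-08). Intervals of this kind, and the limits set by 3 counts that are used below, cover counting error only. In BM-derived macrophages the change at day 3 missed the threshold, at -0.76 ± 0.37 (adjusted p = 0.17; 0.0013 in a fit on only these groups), and the fall at day 12 relative to day 3 was -4.60 ± 0.46 (adjusted p = 3e-07). At day 12 it lay below day 0 by a log2 fold change of -5.36 ± 0.47 (adjusted p = 7.3e-09). Pira2 was lower in iPSC-derived than in BM-derived macrophages on all 4 days, with log2 fold changes of -1.96 ± 0.39 at day 0, -3.73 ± 0.43 at day 3 and -4.27 ± 0.55 at day 6 (-5.21 without the third iPSC-derived library at day 6), and a 15.7-fold difference at day 12 with a counting interval of 5.08 to 78.6-fold. The day 3 change differed between the sources by -1.77 ± 0.55 (adjusted p = 0.024). That call was lost without the second iPSC-derived library at day 3 (-1.40, adjusted p = 0.068), the first or second BM-derived library at day 0 (-1.72 and -1.77, adjusted p = 0.06 and 0.054) or the first BM-derived library at day 3 (-1.70, adjusted p = 0.056).

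Counts of Pira2 and Pirb rest on unequal parts of their transcripts. Of the 51-base windows in the longest Pira2 transcript, 93.8% also occurred in another gene, mainly Gm15922, Gm14548 and Pirb, so single reads that map uniquely could come from few places in it. The share was 37.0% for Pirb. Their levels and ratio are uncertain to that extent. The reads were sequenced in pairs, which these windows do not take into account.

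Within each library, the log2 ratio of Pirb over Pira2 (RPKM with 0.1 added) averaged 3.40 ± 0.27 at day 0, 5.66 ± 0.86 at day 3, 7.02 ± 0.69 at day 6 and 6.90 ± 0.76 at day 12 in iPSC-derived macrophages (SD, n = 3). In BM-derived macrophages it averaged 2.88 ± 0.14, 4.58 ± 0.16, 6.05 ± 0.23 and 6.73 ± 0.15 on the same days. Every co-cultured library of either source lay above every day 0 library in this ratio, whose lowest co-cultured value was 4.39 and highest day 0 value 3.71. Where Pira2 is near 0 the ratio depends on the amount added, and with 0.5 RPKM it was 4.85 at day 12 in iPSC-derived and 5.97 in BM-derived macrophages.

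**Figure D3:**
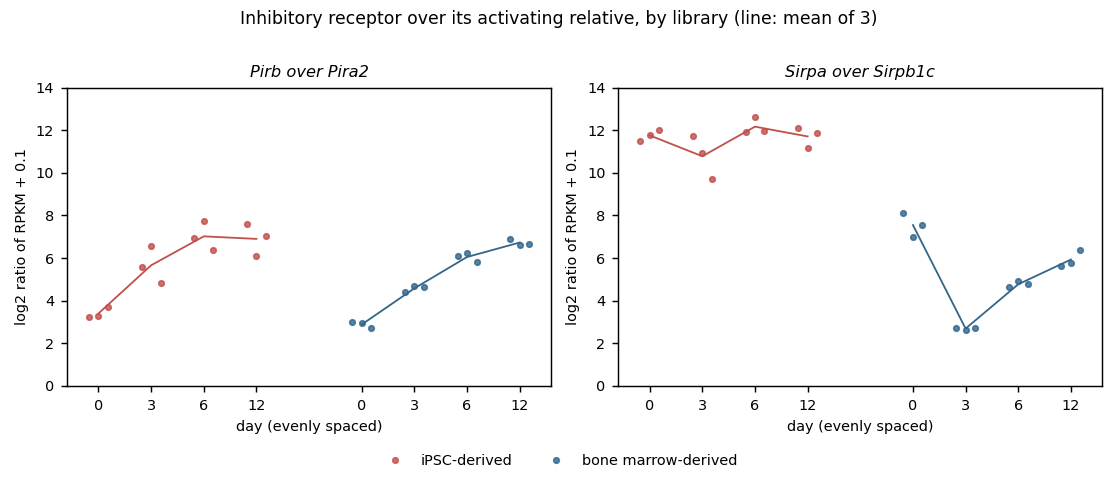
The log2 ratio of RPKM (0.1 added) within each library for Pirb over Pira2 and for Sirpa over Sirpb1c against day, with iPSC-derived libraries at left and BM-derived libraries at right; points are libraries and lines join the means of 3. The first ratio is higher after day 0 in both sources, and the second drops to a mean of 2.69 at day 3 in BM-derived cells.

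Sirpb1c (ENSMUSG00000074677.11, chr3:15795145-15848528, minus strand) encodes a SIRP-beta protein, a relative of Sirpa that signals through DAP12. In iPSC-derived macrophages it had no count at day 0, 0.308, 0.842 and 0.919 CPM at day 3, 1 count in all at day 6 and 3 counts in all at day 12. The levels in BM-derived macrophages were 3.61, 7.66 and 6.12 CPM at day 0, 178, 173 and 186 CPM at day 3, 54.3, 48.3 and 47.9 CPM at day 6, and 29, 22 and 14.9 CPM at day 12. No BM-derived day overlapped another, and every BM-derived library lay above every iPSC-derived one.

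At day 3 Sirpb1c rose in BM-derived macrophages against day 0, with a log2 fold change of 4.94 ± 0.35 (adjusted p = 8e-10). It fell again at day 12 relative to day 3, with a log2 fold change of -3.02 ± 0.31 (adjusted p = 1.1e-06), and was above day 0 by 1.91 ± 0.32 (adjusted p = 9.7e-05). In iPSC-derived macrophages the 18 counts at day 3 put it at least 6.19-fold higher than at day 0, with the floor set at 3 counts over the group (adjusted p = 0.0017). Sirpb1c was lower in iPSC-derived than in BM-derived macrophages at day 3, with a log2 fold change of -8.01 ± 0.43 (adjusted p = 7.1e-12). At day 0 it was at least 53.9-fold lower, and from 1 and 3 counts it was 1328-fold lower at day 6 (interval 238 to 52497-fold) and 208-fold lower at day 12 (interval 71.0 to 1013-fold). Sirpb1c passed the filter on low counts only through BM-derived libraries, so its direction between the sources was built in and these p-values are descriptions. The log2 ratio of Sirpa over Sirpb1c in BM-derived macrophages averaged 7.55 ± 0.57 at day 0, 2.69 ± 0.06 at day 3, 4.77 ± 0.13 at day 6 and 5.93 ± 0.39 at day 12, and in iPSC-derived macrophages it averaged between 10.78 and 12.17, values that depend on the 0.1 RPKM added because Sirpb1c was near 0 there.

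Both Sirpb1c relatives also peaked at day 3 in BM-derived macrophages. Sirpb1a averaged 57.0 ± 4.82 CPM at day 3 against 2.33 ± 0.247 CPM at day 0 (log2 fold change 4.61 ± 0.46, adjusted p = 3e-07). Sirpb1b, which was named after its values were seen, averaged 58.5 ± 3.39 CPM at day 3 against 3.79 ± 1.20 CPM at day 0 (log2 fold change 3.95 ± 0.58, adjusted p = 2.6e-05). Neither exceeded 0.985 CPM in any iPSC-derived library. Of the Sirpb1c windows of 51 bases, 57.0% also occurred in Sirpb1b or Sirpb1a, so the split of reads among the 3 genes is uncertain.

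**Figure D4:**
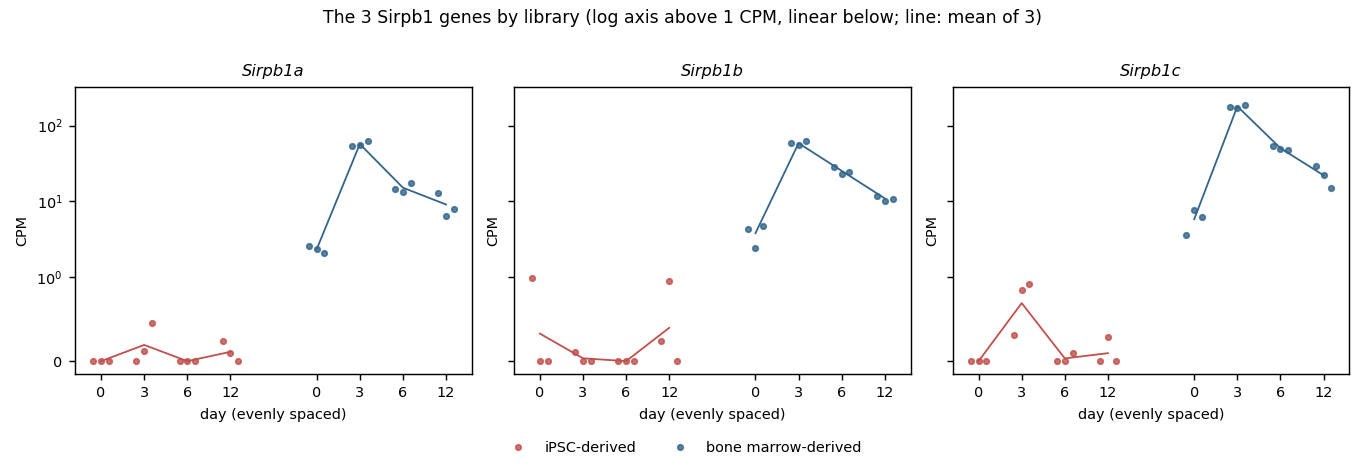
Levels of Sirpb1a, Sirpb1b and Sirpb1c in CPM against day, with iPSC-derived libraries at left and BM-derived libraries at right; points are libraries and lines join the means of 3. The 3 genes peak at day 3 in BM-derived cells, with means of 57.0, 58.5 and 179 CPM, and stay under 1 CPM in iPSC-derived cells.

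Tarm1 (ENSMUSG00000053338.9, chr7:3486500-3502624, minus strand) encodes an activating receptor of myeloid cells that signals through the Fc receptor gamma chain and lies in the same cluster of chromosome 7 as Pirb. It had 17.3, 18.4 and 3.32 CPM at day 0 in iPSC-derived macrophages, 0.616, 0 and 0 CPM at day 3, and no count at day 6 or day 12. BM-derived macrophages had no count at day 0, 33.5, 42.3 and 34.2 CPM at day 3, 6.39, 3.36 and 5.49 CPM at day 6, and 0.2, 0.694 and 0.0900 CPM at day 12. The sources thus moved in opposite directions between day 0 and day 3, with no overlap within either.

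In iPSC-derived macrophages Tarm1 was at least 124-fold lower at day 12 than at day 0 (adjusted p = 1.6e-05). In BM-derived macrophages it was at least 296-fold higher at day 3 than at day 0 (adjusted p = 3.8e-06), and it fell at day 12 relative to day 3, with a log2 fold change of -6.76 ± 0.87 (adjusted p = 5.4e-05; -7.87 without the second library at day 12). Before co-culture it was at least 104-fold higher in iPSC-derived than in BM-derived macrophages (adjusted p = 1.1e-05), and at day 3 it was lower, with a log2 fold change of -7.30 ± 0.92 (adjusted p = 1.1e-05). At day 6 it was at least 46.4-fold lower (adjusted p = 0.00024). The third iPSC-derived library at day 0 was far below the other two, at 3.32 CPM. All 6 counts of the iPSC-derived group at day 3 came from the first library, and the change from day 0 of -5.80 ± 0.90 and the difference from BM-derived cells became -9.88 and -11.38 without it, values that depend on the prior count.

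Klra2 (ENSMUSG00000030187.15, chr6:131219223-131247362, minus strand) encodes Ly49B, an inhibitory member of the Ly49 lectin-like family that is found on myeloid cells. It had no count in any of the 12 iPSC-derived libraries and none in BM-derived macrophages at day 0. In co-cultured BM-derived macrophages it had 46.7, 72.1 and 57.4 CPM at day 3, 27.8, 30.1 and 23.4 CPM at day 6, and 22.1, 11.2 and 17 CPM at day 12. The 3 days did not overlap, and the level was highest at day 3.

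At day 3 Klra2 was at least 475-fold higher than at day 0 in BM-derived macrophages (adjusted p = 1.4e-08) and at day 12 at least 134-fold higher (adjusted p = 1.4e-07). It fell at day 12 relative to day 3, with a log2 fold change of -1.81 ± 0.33 (adjusted p = 0.0027). In iPSC-derived macrophages it was at least 528-fold lower than in BM-derived macrophages at day 3, at least 235-fold lower at day 6 and at least 161-fold lower at day 12. Klra2 passed the filter on low counts only through co-cultured BM-derived libraries. A difference from the groups without a count was therefore built in, and the p-values of these differences are descriptions. The 7 natural killer cell markers, Ncr1 and Klrb1c among them, had no count in BM-derived libraries at day 3, where Klra2 was highest, and a summed level of up to 5.65 CPM in BM-derived libraries at day 12. Klra3, a Ly49 relative, averaged 2.23 ± 1.09 CPM at day 3 against 4.86 ± 1.04 CPM at day 0 in BM-derived macrophages, a change that missed the threshold (adjusted p = 0.41).

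Clec2i (ENSMUSG00000030365.11, chr6:128887588-128898167, plus strand) encodes Clr-g, a lectin-like ligand of NKR-P1 receptors. It had 0, 1.53 and 1.39 CPM at day 0 in iPSC-derived macrophages, no count at day 3 or day 6, and 1 count at day 12. The BM-derived libraries had 42.5, 46.9 and 47.0 CPM at day 0, 48.3, 46.3 and 50.1 CPM at day 3, 56.3, 74.0 and 51 CPM at day 6, and 69.5, 66.4 and 74.9 CPM at day 12. Every BM-derived library had at least 42.5 CPM, and no iPSC-derived library exceeded 1.53 CPM.

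Already at day 0, Clec2i was lower in iPSC-derived than in BM-derived macrophages, with a log2 fold change of -5.52 ± 0.45 (adjusted p = 6.5e-09). At day 3 it was at least 429.7-fold lower (adjusted p = 6.7e-10) and at day 6 at least 517-fold lower (adjusted p = 6e-10), and at day 12 its 1 count put it 2027-fold lower (interval 363 to 80104-fold, adjusted p = 6.9e-10). Clec2i passed the filter on low counts only through BM-derived libraries. Its direction between the sources was therefore built in, and the p-values of these source differences are descriptions. Within iPSC-derived macrophages Clec2i was at least 8.73-fold lower at day 3 than at day 0 (adjusted p = 0.0013), with ranges that overlapped because the first library at day 0 had no count. Within BM-derived macrophages the libraries at day 12 lay above those at day 0 without overlap, and the log2 fold change of 0.63 ± 0.33 missed the threshold (adjusted p = 0.19). It passed with DESeq2 (adjusted p = 0.022), in a fit on only these groups (0.0044) and with a replicate block (0.044).

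The Siglecs follow. Siglec1 (ENSMUSG00000027322.11, chr2:131069220-131086765, minus strand) encodes sialoadhesin, an adhesion receptor with no inhibitory motif that is used as a marker of resident and interferon-exposed macrophages. It had 77.9, 69.8 and 103 CPM at day 0, 75.9, 76.1 and 98.7 CPM at day 3, 55.2, 32.5 and 36.1 CPM at day 6, and 127, 148 and 127 CPM at day 12 in iPSC-derived macrophages. Among BM-derived libraries the levels were 82.0, 111 and 79.9 CPM at day 0, 105, 96.1 and 117 CPM at day 3, 84.8, 93.9 and 106 CPM at day 6, and 166, 105 and 113 CPM at day 12. Only the iPSC-derived group at day 6 stood apart from its neighbour in the order of the means.

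Siglec1 was lower in iPSC-derived than in BM-derived macrophages at day 6, with a log2 fold change of -1.20 ± 0.21 (adjusted p = 0.00019). On that day the fibroblast markers summed to 230.2 to 532 CPM in iPSC-derived and 17.8 to 32.5 CPM in BM-derived libraries, and their part in the difference was not tested. Siglec1 rose at day 12 relative to day 0 in iPSC-derived macrophages, with a log2 fold change of 0.68 ± 0.20 (adjusted p = 0.015), a call lost without the first or second library at day 0 (adjusted p = 0.063 and 0.085) or the second at day 12 (0.056). In BM-derived macrophages the day 12 change of 0.50 ± 0.20 missed the threshold (adjusted p = 0.08) and passed it without the second library at day 0 (0.67, adjusted p = 0.038), without scaling factors (0.67, adjusted p = 0.017) and in a fit on only these groups (0.51, adjusted p = 0.047).

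Beside Siglec1, 14 other interferon-inducible genes were counted. The change from day 0 differed between the sources for all 14, at day 3 and at day 12, and was lower in iPSC-derived macrophages. The median difference was -3.72 and -3.73, against -0.01 and -0.02 over all genes, of which 20.5% and 20.1% were called. At day 0, 13 of the 14 were already higher in iPSC-derived than in BM-derived macrophages and 0 lower. The median log2 fold change of the 14 was 3.43 there, and 18.9% of all genes were higher. Between the sources it was -0.58 at day 3 and -0.42 at day 12, with 5 and 4 of the 14 lower and 0 higher. The differences in change thus include the difference at day 0. Of all genes, 8.92% were lower between the sources at day 3 and 4.74% at day 12. The 4 lower at day 12 became 2 without the second iPSC-derived library at day 12 and in a fit on only these groups. Without the first BM-derived library at day 12, 1 was higher and 1 lower, and with no filter on low counts 1 was higher and 6 lower. At day 3 against day 0, 13 of the 14 rose and 0 fell in BM-derived macrophages (median log2 fold change 2.88, against 0.04 over all genes; 11.9% of all genes rose), while Siglec1 did not pass (adjusted p = 0.5). At day 12 against day 0, 10 of the 14 fell and 0 rose in iPSC-derived macrophages (median -1.31, against 0.04 over all genes; 10.7% of all genes fell). Oasl1, a negative regulator of interferon production, averaged 8.80 ± 4.16 CPM at day 12 against 237 ± 8.82 CPM at day 0 in those cells (log2 fold change -4.76 ± 0.34, adjusted p = 3.9e-10). In BM-derived macrophages Oasl1 averaged 15.2 ± 6.16 CPM at day 12 against 1.01 ± 0.261 CPM at day 0 (log2 fold change 3.91 ± 0.41, adjusted p = 1.2e-07). Siglec1 was called higher at day 12 against day 0 in the iPSC-derived cells, in which most of these genes fell. That call was lost on leaving out single libraries, as given above. A part of interferon in the Siglec1 level was not tested.

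Siglece (ENSMUSG00000030474.9, chr7:43651070-43660161, minus strand) encodes Siglec-E, an inhibitory receptor for sialic acids on mouse myeloid cells. In iPSC-derived macrophages it had 13.8, 13.7 and 8.36 CPM at day 0, 18.2, 17.6 and 7.35 CPM at day 3, 33.1, 26.9 and 16.6 CPM at day 6, and 32.4, 28.2 and 24.6 CPM at day 12. BM-derived macrophages had 2.06, 4.06 and 4.69 CPM at day 0, 146, 174 and 151 CPM at day 3, 60, 94.4 and 74.0 CPM at day 6, and 30.1, 37.1 and 31.9 CPM at day 12. The sources overlapped at day 12 alone.

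Siglece rose in BM-derived macrophages at day 3 relative to day 0, with a log2 fold change of 5.44 ± 0.36 (adjusted p = 1.2e-10), and stayed above day 0 at day 12 by 3.19 ± 0.34 (adjusted p = 1.5e-07). In iPSC-derived macrophages it rose at day 12 relative to day 0, by 1.25 ± 0.30 (adjusted p = 0.0033). The change differed between the sources by -5.17 ± 0.46 at day 3 (adjusted p = 8.5e-09) and by -1.94 ± 0.44 at day 12 (adjusted p = 0.0024). Before co-culture Siglece was higher in iPSC-derived than in BM-derived macrophages, by 1.72 ± 0.34 (adjusted p = 0.00025), and at day 3 it was lower, with a log2 fold change of -3.45 ± 0.31 (adjusted p = 1.1e-08).

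Cd33 (ENSMUSG00000004609.11, chr7:43524216-43544428, minus strand) encodes another sialic acid-binding Siglec, whose human counterpart is inhibitory. It had 176, 149 and 114 CPM at day 0, 172, 203 and 74.1 CPM at day 3, 197, 265 and 139.6 CPM at day 6, and 286, 269 and 249 CPM at day 12 in iPSC-derived macrophages. The levels in BM-derived macrophages were 327, 263 and 329.6 CPM at day 0, 141, 116 and 145 CPM at day 3, 204, 212 and 195 CPM at day 6, and 341, 263 and 287 CPM at day 12. The BM-derived libraries were lowest at day 3, the day on which those of Siglece were highest. In iPSC-derived macrophages the third library was the lowest of its group on each of the 4 days, for Siglece as for Cd33.

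Cd33 fell in BM-derived macrophages at day 3 relative to day 0, with a log2 fold change of -1.19 ± 0.25 (adjusted p = 0.0015), and rose at day 12 relative to day 3, by 1.15 ± 0.25 (adjusted p = 0.0045). In iPSC-derived macrophages it rose at day 12 relative to day 0, by 0.87 ± 0.25 (adjusted p = 0.014), a call lost without the third library at day 0 (0.72, adjusted p = 0.074). The day 3 change differed between the sources by 1.22 ± 0.36 (adjusted p = 0.016), a call lost without the second iPSC-derived library at day 3 (0.91, adjusted p = 0.06) or without scaling factors (0.94, adjusted p = 0.064). At day 0 Cd33 was lower in iPSC-derived than in BM-derived macrophages, with a log2 fold change of -1.07 ± 0.25 (adjusted p = 0.0019).

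All 10 receptors passed the filter on low counts, but Klra2, Clec2i and Sirpb1c passed only through BM-derived libraries, where they were high, so that these had to differ between the sources. Klra2 passed only through co-cultured BM-derived libraries, so that it also had to be higher there than at day 0. In iPSC-derived macrophages at day 3 relative to day 0, 1 receptor was called higher (Sirpb1c) and 3 lower (Clec2i, Tarm1 and Pira2), where 19.4% of all tested genes were called (11.2% higher and 8.14% lower). At day 12 against day 0, 3 were higher (Siglec1, Siglece and Cd33) and 4 lower (Clec2i, Tarm1, Pira2 and Pirb), with 24.7% of all genes called (14% higher and 10.7% lower). At day 12 against day 3, 3 were higher (Siglec1, Siglece and Cd33) and 3 lower (Pira2, Pirb and Sirpb1c), with 8.89% of all genes called (4.07% higher and 4.82% lower). The last Siglec1 call was lost without the first or second library at day 3 (adjusted p = 0.14 and 0.13) or the first or second at day 12 (0.063 and 0.12). Those of Siglece and Cd33 were lost without the third library at day 3 (0.14 and 0.098), the first at day 12 (0.11 and 0.088) or the second at day 12 (0.072 and 0.074). A fit on only these groups called 0 of the 10 receptors at day 12 relative to day 3.

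In BM-derived macrophages at day 3 relative to day 0, 5 receptors were called higher (Klra2, Tarm1, Pirb, Sirpb1c and Siglece) and 1 lower (Cd33), with 18.5% of all genes called (11.9% higher and 6.61% lower). At day 12 against day 0, 3 were higher (Klra2, Sirpb1c and Siglece) and 2 lower (Pira2 and Pirb), with 23.8% of all genes called (14.7% higher and 9.08% lower). At day 12 against day 3, 1 was higher (Cd33) and 6 were lower, among them Siglece with a log2 fold change of -2.25 ± 0.30 (adjusted p = 1.7e-05), with 8.45% of all genes called (4.20% higher and 4.25% lower).

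Between iPSC-derived and BM-derived macrophages, 2 receptors were called higher and 5 lower at day 0 (36.0% of all genes called, 18.9% higher and 17.1% lower), and 1 higher and 7 lower at day 3 (17.9%, 8.94% higher and 8.92% lower). At day 6, 0 were higher and 8 lower (13.2%, 6.99% higher and 6.23% lower), and at day 12, 0 were higher and 5 lower (9.77%, 5.03% higher and 4.74% lower). The 5 at day 12 were Klra2, Clec2i, Pira2, Pirb and Sirpb1c. Klra2, Clec2i and Sirpb1c were also among those lower at day 3 and day 6, and Clec2i and Sirpb1c at day 0. These passed the filter only through BM-derived libraries, so their direction was built in and adds to the counts of lower receptors. The change from day 0 differed between the sources at day 3 for 6 receptors (20.5% of all genes, 9.03% higher and 11.5% lower) and at day 12 for 3 receptors (20.1%, 9.07% higher and 11% lower), which were Clec2i, Tarm1 and Siglece. For Klra2 and Sirpb1c this difference could not be sized, since counts were 0 or few in iPSC-derived macrophages. Cd33 missed the threshold at day 12, at 0.92 ± 0.36 (adjusted p = 0.072), and passed it with DESeq2 (0.048), with no filter (0.0033), with a replicate block (0.011) and in a fit on only these groups (0.0099). The comparisons with day 0 share their day 0 libraries within a source.

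Of 41 other paired immunoglobulin-like receptors listed, 27 were tested. In BM-derived macrophages 11 rose and 3 fell at day 3 relative to day 0 (median log2 fold change 1.11, against 0.04 over all genes), where 11.9% of all genes rose and 6.61% fell. At day 12 relative to day 0, 9 rose and 8 fell, where 14.7% of all genes rose and 9.08% fell. Lair1, an inhibitory collagen receptor, averaged 381 ± 16.0 CPM at day 12 against 104 ± 8.59 CPM at day 0 (log2 fold change 1.88 ± 0.15, adjusted p = 1.4e-09). Cd300a, an inhibitory receptor for phosphatidylserine, averaged 184 ± 16.3 CPM at day 12 against 812 ± 42.8 CPM at day 0 (log2 fold change -2.14 ± 0.17, adjusted p = 1.8e-09).

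In iPSC-derived macrophages 2 of the 27 rose and 12 fell at day 12 relative to day 0 (median -0.22), where 14% of all genes rose and 10.7% fell, and a fit on only these groups called 1 and 8. Fcgr2b, the inhibitory Fc gamma receptor, averaged 549 ± 117 CPM at day 12 against 109 ± 10.8 CPM at day 0 (log2 fold change 2.34 ± 0.24, adjusted p = 1.2e-07). Cd300lf averaged 11.5 ± 4.58 CPM at day 12 against 172 ± 36.4 CPM at day 0 (log2 fold change -3.90 ± 0.37, adjusted p = 4.8e-08). Between the sources at day 12, 3 were higher and 10 lower in iPSC-derived macrophages, and 1 and 7 in a fit on only those groups, where 5.03% of all genes were higher and 4.74% lower. Sirpb1a, among those lower, did not exceed 0.459 CPM in any iPSC-derived library and passed the filter on low counts only through BM-derived libraries. Its direction was therefore built in and adds to the count of lower genes. Whether this holds for others in the list was not examined. Pilra, an inhibitory paired receptor, averaged 1.27 ± 1.18 CPM in iPSC-derived and 63.2 ± 20.3 CPM in BM-derived macrophages (log2 fold change -5.61 ± 0.38, adjusted p = 2e-10).

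Signalling partners were also counted, beside all-gene shares of 11.9% higher and 6.61% lower in BM-derived and 11.2% higher and 8.14% lower in iPSC-derived macrophages at day 3. Of 18 adaptors, phosphatases and kinases, 8 rose and 0 fell at day 3 relative to day 0 in BM-derived macrophages, and 5 rose and 2 fell in iPSC-derived macrophages. Ptpn6, which encodes SHP-1, averaged 472 ± 14.6 CPM at day 12 against 222 ± 9.91 CPM at day 0 in BM-derived macrophages (log2 fold change 1.09 ± 0.12, adjusted p = 3.9e-07). Inpp5d, which encodes the inositol phosphatase SHIP-1, averaged 375 ± 41.3 CPM at day 12 against 161 ± 12.2 CPM at day 0 in iPSC-derived macrophages (log2 fold change 1.22 ± 0.12, adjusted p = 3.7e-08). The Src-family kinase Fgr had no count at day 12 in iPSC-derived macrophages and averaged 11.9 ± 7.42 CPM there at day 0, at least 114-fold lower at day 12 (adjusted p = 1.9e-06).

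Among 12 ligands, 10 were tested, and 1 was higher and 4 were lower in iPSC-derived than in BM-derived macrophages at day 12, where 5.03% of all genes were higher and 4.74% lower. H2-K1, an MHC class I heavy chain and thus a ligand of the PIR proteins, averaged 842 ± 70.0 CPM in iPSC-derived and 2270.2 ± 160.0 CPM in BM-derived macrophages (log2 fold change -1.43 ± 0.11, adjusted p = 3.3e-09). Rtn4, which encodes the PIR-B ligand Nogo, averaged 238 ± 20.8 CPM in iPSC-derived and 145 ± 5.71 CPM in BM-derived macrophages (log2 fold change 0.72 ± 0.17, adjusted p = 0.0055).

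For the Siglec ligands, 17 of 18 sialic acid genes were tested, of which 5 rose and 2 fell at day 12 relative to day 0 in iPSC-derived macrophages, and 2 rose and 3 fell in BM-derived macrophages. Of all genes, 24.7% were called in that comparison in iPSC-derived and 23.8% in BM-derived macrophages. The BM-derived count of 5 became 3 without the second library at day 0 or the second or the third at day 12. St6gal1, which attaches alpha-2,6-linked sialic acid, averaged 228 ± 36.0 CPM at day 12 against 85.0 ± 22.6 CPM at day 0 in iPSC-derived macrophages (log2 fold change 1.43 ± 0.20, adjusted p = 7.7e-06). St3gal6 averaged 105 ± 67.6 CPM in iPSC-derived and 4.91 ± 0.427 CPM in BM-derived macrophages at day 12 (log2 fold change 4.42 ± 0.57, adjusted p = 1.1e-05). Of the other 6 Siglecs, 4 were tested, and Siglecf was called higher in iPSC-derived than in BM-derived macrophages at day 12 (adjusted p = 0.029). Its values there were 2.64, 24.3 and 3.03 CPM in iPSC-derived and 1.10, 0.198 and 0 CPM in BM-derived macrophages, so that 1 library held most of it. The call was lost without the second iPSC-derived library, without the second or the third BM-derived library, and in a fit on only these groups.

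Of 38 other lectin-like genes of the natural killer complex, 37 were in the table and 8 were tested. At day 12, 4 of these were lower and 0 were higher in iPSC-derived than in BM-derived macrophages, where 4.74% of all genes were lower. The 4 became 2 without any 1 of the iPSC-derived libraries, without the third BM-derived library, or in a fit on only these groups. Klra3 was among the 4 and had 1 count at day 3 and 0 at the other days in iPSC-derived libraries. It passed the filter on low counts only through BM-derived libraries, so its direction was built in and adds to the count. Clec1a, also among the 4, had no count in iPSC-derived libraries at day 12. Clec12a, an inhibitory myeloid lectin, averaged 116 ± 23.9 CPM in iPSC-derived and 368 ± 58.3 CPM in BM-derived macrophages (log2 fold change -1.67 ± 0.20, adjusted p = 2.2e-06). Cd69 averaged 11.7 ± 2.90 CPM at day 12 against 0.956 ± 0.989 CPM at day 0 in BM-derived macrophages (log2 fold change 3.57 ± 0.60, adjusted p = 8.4e-05).

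The genes most like each receptor were those with the highest Pearson correlation of log2 CPM over the 24 libraries, which share sources, days and depth. Predicted genes named by number or clone were left out of this ranking. Ms4a4c was most like Klra2 (r = 0.978), with 216 CPM at day 3 against 7.69 CPM at day 0 in BM-derived macrophages. Sirpb1a was most like Sirpb1c (r = 0.988), followed by Fgl2 (r = 0.972). The integrin beta chain gene Itgb2 was most like Pirb (r = 0.957), and Emb was most like Pira2 (r = 0.937).

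Mmp14, a membrane-bound matrix metalloprotease gene, was most like Siglece (r = 0.927), and Mir22hg was most like Tarm1 (r = 0.935). Vill was most like Clec2i (r = 0.973), Akirin1 most like Sirpa (r = 0.889) and Ttyh3 most like Cd33 (r = 0.810). For Siglec1 the best value was 0.731, with Slfn9.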

How the data were processed

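RNA of 24 macrophage libraries was made into cDNA by the SMART-seq v2 method and sequenced as paired reads of 51 bases, per the labels' protocols. The deposited file holds whole-number counts per gene, made by the authors with featureCounts 1.5.0-p1 over GENCODE vM9 from unique reads without regard to strand, per the file headers. STAR and the build mm10 (GRCm38) are named in the submitters' processing notes. A spike-in is named in the protocol, and the table holds 0 spike-in rows.

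From these counts, 15000 of 47643 genes passed edgeR's filter (minimum count 10, minimum total 15). edgeR 4.0.16 in R 4.3.3 fitted 8 group means over all 24 libraries with TMM factors and robust quasi-likelihood, and 12 contrasts were tested with Benjamini-Hochberg adjustment over all tested genes at a threshold of 0.05. CPM values use the scaled library sizes, and RPKM divides them by the gene length in the file. A group at 0 was set to a floor of 3 counts over the group, and groups with 1 to 3 counts have an exact 95% interval. Library totals were 5839316 to 11805478 counts. Alternatives were DESeq2 1.42.0, no scaling factors, no filter, a fit on the compared groups, a replicate block and leaving out each library. The scripts were tested on simulated counts.

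The members and lists were chosen with earlier results of these data known. All 10 members are named, as are, in each list, called genes with the 3 lowest adjusted p at day 12 and up to 3 called against the list's majority, from which a few examples are given, and the genes most correlated with each member. Sirpb1b and the markers were named beyond that rule. Transcript windows were counted in GENCODE vM21, and promoters came from RefSeq.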

Additional observations from a re-analysis of the deposited data

Results flagged for a closer look

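The change from day 0 differed between iPSC-derived and BM-derived macrophages for 6 of the receptors at day 3 and for 3 of them at day 12, by the test of the difference itself (edgeR). Of all tested genes, 20.5% were called in this test at day 3 and 20.1% at day 12. As iPSC-derived minus BM-derived log2 change at day 3, the value was -5.17 for Siglece, -1.77 for Pira2, -1.30 for Pirb and 1.22 for Cd33. At day 12 it was -1.94 for Siglece. The day 3 calls of Pira2 and Cd33 were lost on leaving out single libraries, as given above. For Tarm1 and Clec2i a group had 3 or fewer counts, so that no size is given. The adjusted p at day 3 was 2.4e-07 for Tarm1 and 0.0018 for Clec2i, and at day 12 it was 0.00014 for Tarm1 and 0.0014 for Clec2i. For Clec2i the difference rests on 27 counts in iPSC-derived libraries at day 0, which came from 2 of the 3 libraries.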

How the results depend on the processing

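Of 80 member fold changes with enough counts in both groups, the 868 values under alternatives that kept direction and call stood against 29 that lost the call, 20 that gained it and 29 that turned sign. In the fit on only the compared groups, called receptors numbered 2 for iPSC-derived day 3 against day 0, 0 for iPSC-derived day 12 against day 3 and 8 for BM-derived day 12 against day 0. DESeq2 called 5 for the source difference in the day 12 change. Leaving out 1 library gave 2 to 5 called receptors for iPSC-derived day 12 against day 3. With 0.5 RPKM added, log2 Pirb over Pira2 was 5.35 and 4.85 at days 6 and 12 in iPSC-derived and 5.82 and 5.97 in BM-derived macrophages, and Sirpa over Sirpb1c was 9.44, 9.48, 9.93 and 9.60 at the 4 days in iPSC-derived macrophages. The fits on only the compared groups and those without 1 library hold fewer libraries. The causes of these shifts were not tested.

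All sign changes were of log2 values near 0 that were not called. Without scaling factors, Sirpa was -0.04 between sources at day 12. So were Siglec1 at -0.19 (iPSC-derived day 3 against day 0), -0.16 (sources at day 12) and -0.11 (source difference in the day 12 change), and Cd33 at -0.17 (iPSC-derived day 3 against day 0), 0.13 (BM-derived day 12 against day 0) and -0.04 (sources at day 3). Leaving out 1 library gave ranges that crossed 0. For Sirpa they were -0.0 to 0.15 (BM-derived day 3 against day 0) and -0.16 to 0.1 (source difference in the day 12 change). For Siglec1 they were -0.15 to 0.18 (iPSC-derived day 3 against day 0), -0.3 to 0.09 (sources at day 0) and -0.06 to 0.3 (sources at day 12). For Cd33 they were -0.25 to 0.34 (iPSC-derived day 3 against day 0), -0.16 to 0.04 (BM-derived day 12 against day 0), -0.13 to 0.46 (sources at day 3) and -0.28 to 0.19 (sources at day 6). Without scaling the median of all genes moved to between -0.31 and 0.22, and the higher and lower calls of all genes shifted, as for BM-derived day 12 against day 0 (2820 and 882, against 2206 and 1362) and the sources at day 12 (416 and 1235, against 754 and 711). The fit on compared groups called 324 genes against 1334 for iPSC-derived day 12 against day 3, 2106 against 3706 for day 12 against day 0, 1849 against 2907 for day 3 against day 0, and 2751 against 1267 for BM-derived day 12 against day 3.

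The replicate numbers were not treated as pairs, since not every correlation was above 0.1. Deviations of equal-numbered libraries correlated at -0.0545 to 0.161 in iPSC-derived libraries, with 4 of 18 above 0.1, and at -0.0209 to 0.0397 in BM-derived libraries, with 0 of 18 above 0.1. In each source 10 of 18 pairs correlated best with their own number, which leaves some shared deviation among iPSC-derived libraries possible. With the replicate block, 6 receptors were called for BM-derived day 12 against day 0 (5 without) and 4 for the source difference in the day 12 change (3 without), Cd33 turned to -0.04 for iPSC-derived day 3 against day 0, and all-gene counts moved by less than 1.5 times, as from 3568 to 3531. Alternatives for the related lists and left-out libraries for the ratios were chosen after seeing the data. Depth limits statements on receptors at or near 0 to the floors given.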
